A study of Caenorhabditis elegans with 11 samples.

Results

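The genes described here are 79 protein-coding genes of Caenorhabditis elegans, listed under sequence names, whose transcripts were least abundant in 1 of 4 groups of worms, the germline controls. They are 79 of the 882 genes that the authors listed in a deposited expression table. The genes were chosen by their measured levels: the germline control mean had to be at most 0.5 times the mean of each of the other 3 groups. A further condition kept genes out of the set if the authors' table of splicing changes names them. Of 423 protein-coding genes with a sequence name, 392 were not named in the splicing table, and 79 of these 392 met the condition on levels. Another 8 sequence-named genes met it but were named in the splicing table.

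All worms were young adults kept on auxin (2 mM, 20 °C) for 24 hours, after which whole worms were lysed and their poly(A)+ RNA sequenced. Auxin makes TIR1, a plant receptor, send proteins that carry a degron tag to destruction. The soma controls (strain CA1200, 2 samples) carried ieSi57, a TIR1 transgene driven in somatic cells by the eft-3 promoter, in an unc-119(ed3) background, with Cb unc-119(+) in the transgene. The soma-depleted worms (DG4703, 3 samples) carried ieSi57 together with sacy-1(tn1880), a degron-tagged and GFP-tagged allele of the helicase gene sacy-1. The germline controls (CA1352, 3 samples) carried ieSi64, in which the gld-1 promoter drives TIR1 in the germline, again with unc-119(ed3) and with Cb unc-119(+) in the transgene. The germline-depleted worms (DG4700, 3 samples) carried ieSi64 and sacy-1(tn1880). The labels of both depleted strains give no unc-119 allele, so the tagged sacy-1 and the unc-119 genotype differ together between control and depleted worms. The unc-119 gene is itself in the authors' deposited table, with 8.91 FPKM in the soma control strain, 22.8 after soma depletion, 5.74 in the germline control strain and 7.96 after germline depletion. Its part in any value below was not tested. Each group is 1 strain, so strain background cannot be told apart from the labelled genotype.

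SACY-1 is the worm ortholog of human DDX41, an RNA helicase that works with the spliceosome. A sequence name such as B0281.5 gives the genomic clone on which a gene was found and its number there. Many genes keep such a name because no mutant phenotype or family membership has yet earned them a 3-letter gene class. A young adult hermaphrodite soon holds fertilized embryos as well as its own tissues, and embryos begin to transcribe their own genome within the first divisions. Lysates of whole worms therefore mix somatic, germline and, where present, embryonic RNA. In such bulk samples, fewer cells of a type and less RNA per cell cannot be told apart.

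All levels below are group means from the authors' deposited table, in FPKM, which divides fragment numbers by transcript length and by library size. No value per sample is in these tables, so no standard deviation, replicate range or standard error can be given, and the depth of each sample is unknown. The fold changes and adjusted p-values below are the authors' own, and no p-value was computed here. For every gene among the 882, depleted and control worms of at least 1 strain pair differed by 2-fold or more with an adjusted p below 0.05. Genes short of those limits in both comparisons are not in that table, so shares of listed genes are not shares of the genome. Of 11 genes taken as germline and oocyte markers and 5 as muscle markers, none was listed, and of 9 intestine markers 2 were listed, mtl-2 and vit-3. An unlisted marker has no level here, so most of these markers could not check what the lysates held, and sacy-1 was not listed either.

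The 79 genes spanned a wide range of abundance in the authors' deposited table. Their germline control means ran from 0.498 to 104 FPKM, with a median of 2.57. The medians were 8.13 FPKM in the soma control strain, 8.18 in soma-depleted worms and 6.43 in germline-depleted worms. Summed over the 79 genes, the means came to 1561 FPKM in the soma control strain, 1461 after soma depletion, 532 in the germline control strain and 1351 after germline depletion. The low position of the germline control is what the choice of genes demands, and it is described here, not tested. The other 3 groups were close to each other for most of these genes: the highest was within 1.5-fold of the lowest for 54 of 79 genes and within 2-fold for 73. Over all 882 listed genes the corresponding numbers were 207 and 320. For the 98 other listed genes with a germline control mean at most 0.5 times each other group, they were 58 and 86. The share over all 882 is low partly because 486 of them had an absolute soma log2 fold change of at least 1. The choice of genes also used all 3 of these means, so the closeness is a description.

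**Figure D1:**
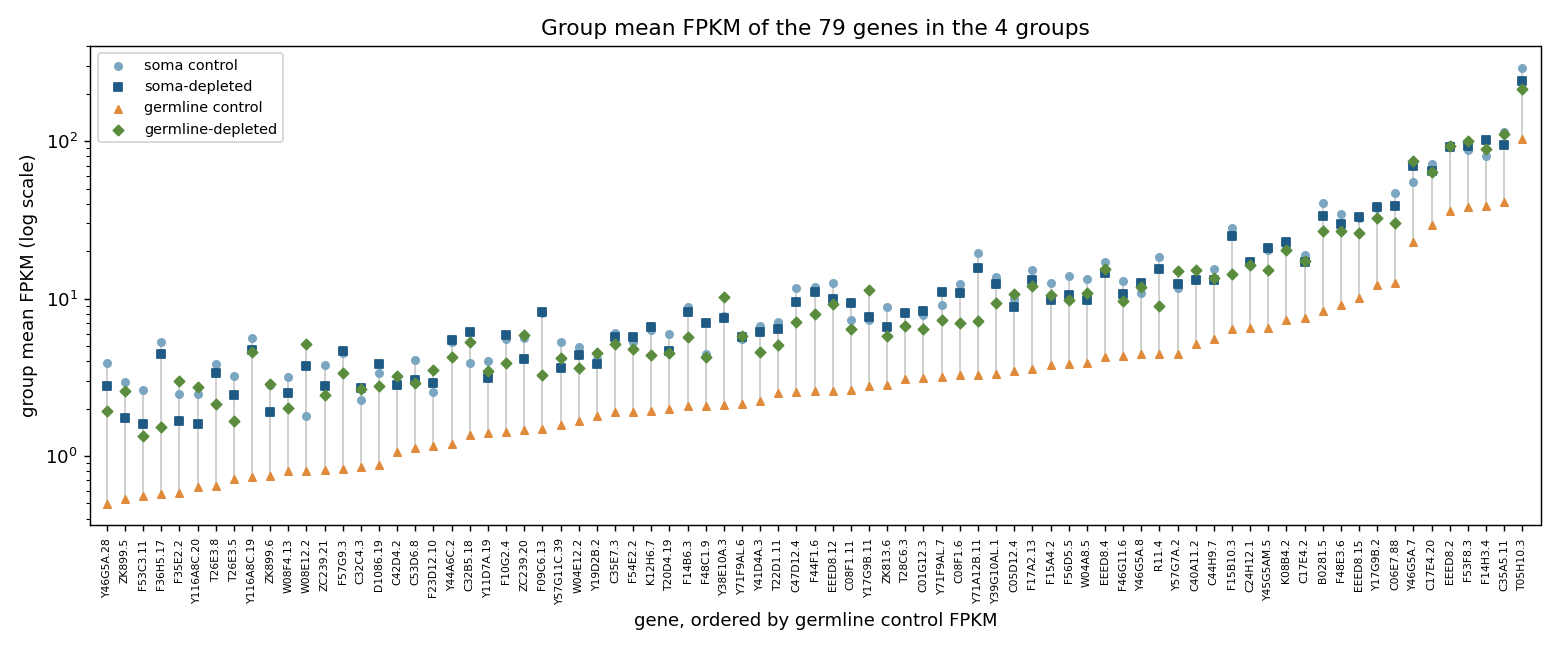
Authors' group mean FPKM (log axis) of each of the 79 genes in the 4 groups, ordered by the germline control mean. Grey lines join the lowest and highest group of a gene, and the germline control (triangles, 0.498 to 104 FPKM) is the lowest point of every line because the genes were chosen for that.

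A group of 6 genes was the most abundant after germline depletion. For T05H10.3, which the current gene name table calls mtre-1, the means in the authors' deposited table were 293 FPKM in the soma control strain, 241 after soma depletion, 104 in the germline control strain and 214 after germline depletion. C35A5.11 stood at 114, 95.1, 41.2 and 110 FPKM in the same order of groups. Its soma control and germline-depleted means were nearly equal, and only the germline control stood apart. F53F8.3 stood at 87.3, 92.6, 38.4 and 100.2 FPKM, and EEED8.2 at 93.9, 92.3, 36.1 and 92.6 FPKM. F14H3.4 (80.5, 102, 38.6 and 88.8 FPKM) had its highest mean in soma-depleted worms. Y46G5A.7 (55.4, 69.6, 22.8 and 74.96 FPKM) had it in germline-depleted worms. Beyond these 6, C17E4.20 was also named by its place beside C17E4.2, with 71.4, 64.5, 29.5 and 63.4 FPKM.

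At the other end of the range, 16 of the 79 genes had a germline control mean under 1 FPKM. Y46G5A.28 was the lowest, with 0.498 FPKM in germline controls against 3.92, 2.80 and 1.92 FPKM in the soma control strain, soma-depleted and germline-depleted worms. Counts behind such genes were small: the authors' mean count over all samples was under 100 for 29 of the 79 genes, down to 26.2 for D1086.19. For these genes a difference of a few reads per library moves the mean visibly, and the spread between replicates is not shown. Over all 882 listed genes 299 had a mean count under 100, as did 42 of the 98 others with the same pattern of means. At the high end, 7 genes had a mean count of at least 1000, with T05H10.3 at 3570.

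In the germline comparison, all 79 genes were higher in germline-depleted worms than in germline controls in the authors' deposited table (adjusted p below 0.05), against 41.8% of the 882 listed genes (369 genes). This contrast was used to choose the genes, so the count is a description and nothing is read from it. Their log2 fold changes ran from 1.00 to 2.63, with a median of 1.42, and 9 were at least 2. Adjusted p-values ran from 1.1e-19 for Y46G5A.7 to 0.0491 for F48C1.9.

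The top of this range is shared by 2 genes. Y116A8C.19 went from 0.731 FPKM in germline controls to 4.61 in germline-depleted worms, a log2 fold change of 2.63 with an adjusted p of 5.7e-13 in the authors' deposited table. Its soma means were 5.63 FPKM in controls and 4.69 after depletion, so its 3 other groups lay together. W08E12.2 had the same rounded log2 fold change, 2.63 (adjusted p = 9.1e-07), between 0.805 and 5.16 FPKM per the authors' deposited table. Unlike Y116A8C.19, it differed among the other groups, with 1.81 FPKM in the soma control strain and 3.71 after soma depletion, on a mean count of 30.0.

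The next members by fold change were of modest abundance. F35E2.2 had a log2 fold change of 2.34 in the authors' deposited table and went from 0.582 to 2.98 FPKM, with 2.49 and 1.67 FPKM in the soma control strain and soma-depleted worms. Y38E10A.3 followed with a log2 fold change of 2.28 in the authors' deposited table, between 2.10 and 10.2 FPKM, beside soma means of 7.70 and 7.48 FPKM. ZK899.5 (2.24 in the authors' deposited table) went from 0.531 to 2.57 FPKM, beside soma means of 2.96 and 1.74 FPKM. Y38E10A.3 was the most abundant of these 3. Y116A8C.20 (2.11), F57G9.3 (2.03), ZC239.20 (2.03), Y17G9B.11 (2.02) and C32B5.18 (1.97) followed among the top 10, each value a log2 fold change from the authors' deposited table.

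The distance of the germline control from the nearest other group differed widely between genes. The lowest other mean was 2.53-fold above the germline control for the median gene, and 13 of the 79 genes were at least 3-fold below each other group. Y116A8C.19 lay farthest from the limit, 6.31-fold below its nearest group, followed by F57G9.3 at 4.11-fold. For F57G9.3 the means were 4.50 FPKM in the soma control strain, 4.66 after soma depletion, 0.822 in the germline control strain and 3.38 after germline depletion. Just inside the limit, the ratio of the germline control to the lowest other mean was 0.497 for R11.4, 0.493 for T22D1.11 and 0.493 for F48C1.9. Just outside it were F31D5.7 at 0.504, F21H7.3 at 0.505 and F55C9.5 at 0.513. The limit falls within a continuous range, and F31D5.7 (3.02, 1.92, 0.965 and 2.74 FPKM in the same order of groups as above) has levels much like those of several members.

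The rule set no order between soma controls and soma-depleted worms, although it kept both means above the germline control. None of the 79 genes differed between soma-depleted worms and soma controls in the authors' deposited table (DESeq2, adjusted p below 0.05), against 59.5% of the 882 listed genes (525 genes). That background is high because many genes are listed for their soma change alone. Among the 311 genes listed as higher after germline depletion with a log2 fold change of at least 1, which include the 79, the share called in the soma comparison was 10.9% (34 genes). Among the other 98 listed genes with the same pattern of means, 2 were called in it, both higher after depletion. Unadjusted p-values are not used here. At an adjusted p under 0.1 in the soma comparison there were 540 of the 882 listed genes (61.2%) and 3 of those 98. Of the 79, there was 1 gene.

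That gene was F53C3.11, named here after its value was seen, with 2.61 FPKM in the soma control strain and 1.59 in soma-depleted worms. Its soma log2 fold change was -0.72 with an adjusted p of 0.0538 in the authors' deposited table. The 79 soma log2 fold changes ran from -0.77 for ZK899.5 to 1.02 for W08E12.2 in the authors' deposited table, with a median of -0.15. W08E12.2 alone passed an absolute value of 1, with an adjusted p of 0.142. For 70 of the 79 genes the absolute log2 fold change was under 0.5, and for 51 it was below 0. Over all 882 listed genes, 316 were under 0.5 and 465 were below 0. Over the other 98 with the same pattern of means these counts were 93 and 71, so neither trait is particular to the 79. An adjusted p above the threshold does not show that soma-depleted and control worms had equal levels.

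**Figure D2:**
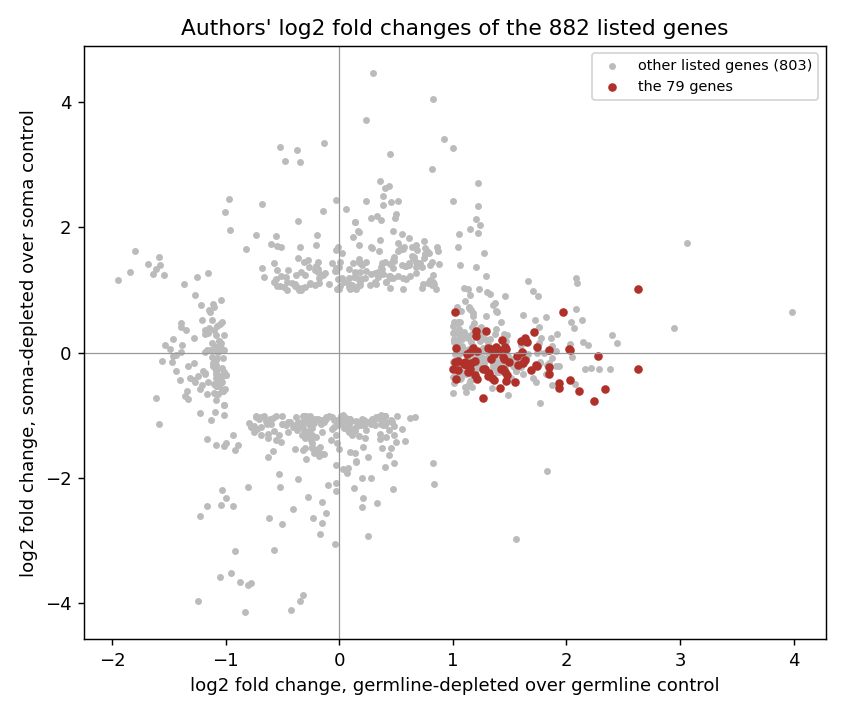
Authors' log2 fold change in the soma comparison against that in the germline comparison for the 79 genes (red) and the 803 other listed genes (grey). The red points lie right of 1.00 on the horizontal axis by choice and between -0.77 and 1.02 on the vertical axis.

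Levels after germline depletion were then set against those of the soma controls, a pair of groups that the rule did not order and that no comparison of the authors tests. The rule did use both means, since the germline control had to be at most 0.5 times each. The pair is therefore not independent of the choice of genes. The germline-depleted mean lay within 1.5-fold of the soma control mean for 61 of the 79 genes and within 2-fold for 74, on a scale of FPKM plus 0.1. Over all 882 listed genes the corresponding numbers were 476 and 674, and over the other 98 with the same pattern of means 60 and 89. The median log2 ratio of germline-depleted to soma control was -0.29 over the 79 genes and 0.11 over all listed genes. The germline-depleted mean was the smaller one for 58 of the 79, and it was the lowest of the 3 other groups for 48. These counts were 399 and 214 over all 882 listed genes. Over the other 98 with the same pattern they were 80 and 69, so the trait is not particular to the 79. Without sample values, differences between these group means cannot be set against replicate spread.

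A few genes departed from the soma control after germline depletion. W08E12.2 had the largest log2 ratio, 1.46, followed by Y17G9B.11 at 0.63. Y17G9B.11 stood at 7.32 FPKM in the soma control strain, 7.67 after soma depletion, 2.80 in the germline control strain and 11.4 after germline depletion. F23D12.10 (0.45), Y46G5A.7 (0.44), C32B5.18 (0.43) and Y38E10A.3 (0.40) came next on the log2 ratio scale. In the other direction, F36H5.17 had a log2 ratio of -1.73, with 5.27 FPKM in the soma control strain, 4.42 after soma depletion, 0.572 in the germline control strain and 1.52 after germline depletion. It thus lay well below both soma groups in either germline strain. Y71A12B.11 (19.5, 15.7, 3.27 and 7.16 FPKM in the same order) had a log2 ratio of -1.44. F09C6.13 (8.13, 8.18, 1.48 and 3.28 FPKM) had -1.28, and R11.4 (18.4, 15.4, 4.43 and 8.92 FPKM) had -1.04. These 4 genes shared the order of groups, with both soma means at the top, germline-depleted worms between and germline controls lowest. Mean counts were low for F36H5.17 (32.1) and F09C6.13 (32.6), beside 290 for Y71A12B.11 and 109 for R11.4. The bounds of F36H5.17 also overlap a pseudogene on the same strand. Y46G5A.28 (-0.995) and F15B10.3 (-0.97) completed the 6 smallest log2 ratios.

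**Figure D3:**
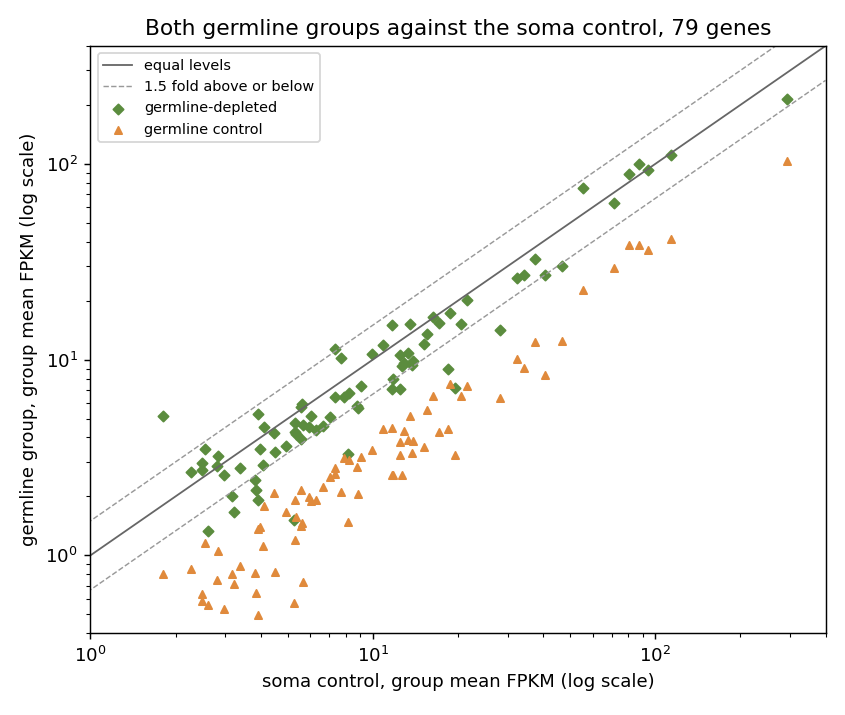
Authors' mean FPKM of germline-depleted worms (diamonds) and germline controls (triangles) against that of soma controls for the 79 genes, both axes logarithmic. The solid line marks equal levels and the dashed lines 1.5-fold differences: most diamonds lie between the dashed lines, with W08E12.2 far above them and F36H5.17, Y71A12B.11, F09C6.13 and R11.4 far below, 58 of 79 diamonds lie below the line of equal levels, and all triangles lie below them by choice of the genes.

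The genes were placed on the genome with the Ensembl release 115 annotation of WBcel235, the build named in the submitters' processing notes. All 79 identifiers were found. Chromosome II held 28 of the 79 genes (35.4%), chromosome IV 16, chromosome I 14, chromosome V 13 and chromosome X 8. None lay on chromosome III, which held 34 of the 312 other eligible genes that could be placed (10.9%) and 13.2% of annotated protein-coding genes. Of those 312 genes, 19.2% were on chromosome II, as were 17.3% of annotated protein-coding genes. Among the 98 other genes with the same pattern of means, 35 were on chromosome II and 8 on chromosome III. Both TIR1 transgenes are on chromosome II and the unc-119(ed3) allele is on chromosome III, per the labels. Whether linkage to either locus bears on these numbers was not tested.

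**Figure D4:**
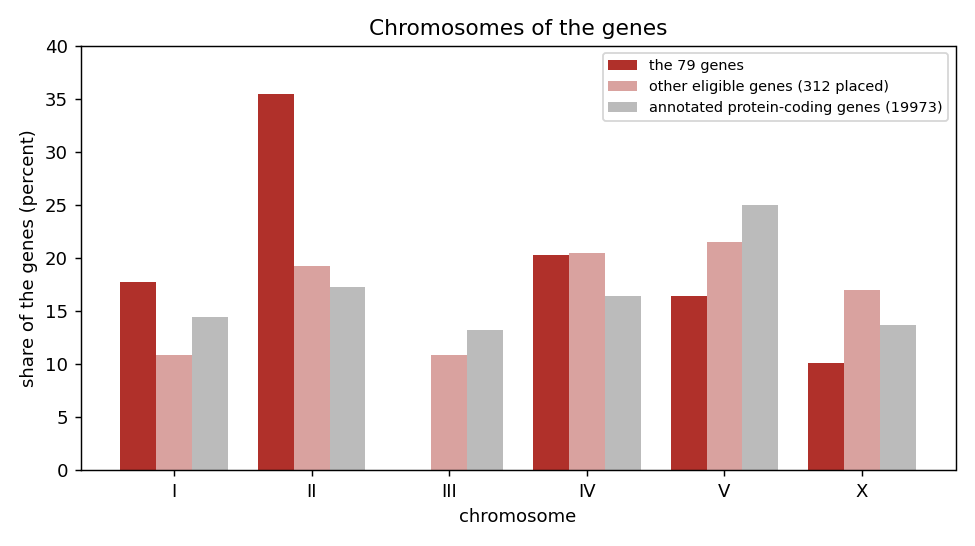
Share of genes on each chromosome, in percent, for the 79 genes, the 312 placed genes that met the conditions on name and splicing table but not on levels, and all 19973 annotated protein-coding genes. Chromosome II holds 35.4% of the 79 genes and chromosome III none.

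Several of the 79 genes were neighbours. Another of the genes lay within 50 kb for 25 of them (31.6%). For the 312 other eligible genes, a more numerous set, the same count was 127 (40.7%). The direction of this difference depended on the distance. Within 20 kb the counts were 22 of the 79 (27.8%) and 75 of the 312 (24.0%). Within 100 kb they were 28 (35.4%) and 168 (53.8%). In 7 pairs, no annotated protein-coding gene lay between the members. Of these pairs, 5 were divergent, with the genes transcribed away from each other from adjacent starts, and 2 were on the same strand. Among 17299 non-overlapping pairs of neighbouring protein-coding genes in the annotation, 24.5% were divergent. With 7 pairs this is a description, and a divergent pair can share the sequence between its starts.

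The densest run was on chromosome II, where EEED8.12 (minus strand, 5408260 to 5409024), EEED8.4 (plus strand, 5409319 to 5411235), EEED8.2 (plus strand, 5416714 to 5418445) and EEED8.15 (plus strand, 5419229 to 5421093) follow each other. EEED8.12 stood at 12.7 FPKM in the soma control strain, 9.99 after soma depletion, 2.58 in the germline control strain and 9.28 after germline depletion. EEED8.4, which starts 294 bases away on the opposite strand, stood at 17.1, 14.6, 4.26 and 15.3 FPKM in the same order. EEED8.15 stood at 32.5, 33.0, 10.1 and 26.2 FPKM. Their levels differed over a wide range, with EEED8.2 the most abundant. The germline control was the lowest group in each gene, as the choice of genes demands. The other 3 groups were within 1.5-fold of each other in each gene, but their order was not the same in all 4. The germline log2 fold changes of the 4 genes were 1.85, 1.84, 1.36 and 1.37, in genome order, in the authors' deposited table. Of the 8 protein-coding genes annotated in this stretch, the 4 members and EEED8.3 were listed and 3 were not.

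Y46G5A.7 and Y46G5A.8 form the closest divergent pair, with 5 bases between their annotated ends on chromosome II (12755148 to 12756332 on the minus strand and 12756338 to 12757677 on the plus strand). Y46G5A.8 stood at 10.8 FPKM in the soma control strain, 12.5 after soma depletion, 4.42 in the germline control strain and 11.9 after germline depletion. Y46G5A.28 lies on the same chromosome at 12850429 to 12851968, with 18 unlisted protein-coding genes in the stretch from Y46G5A.7 onwards. One of the 2 other listed genes in this stretch is pes-10 (12846191 to 12847836), a gene known for its transcription in early embryos. It is not a member because it has a gene-class name, and it stood at 7.10, 5.56, 1.46 and 3.05 FPKM. The other listed gene there is lgc-35 (12836480 to 12840157), whose levels are not given here.

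The other divergent pairs were less abundant. ZC239.20 and ZC239.21, 415 bases apart on chromosome II, are single-exon genes of 459 and 450 bases. ZC239.20 stood at 5.62 FPKM in the soma control strain, 4.15 after soma depletion, 1.46 in the germline control strain and 5.90 after germline depletion, and ZC239.21 at 3.81, 2.78, 0.814 and 2.42 FPKM. Y116A8C.19 and Y116A8C.20, on chromosome IV at 17039055 to 17039645 and 17040918 to 17041523, are single-exon genes of 591 and 606 bases. Y116A8C.20 stood at 2.49, 1.60, 0.633 and 2.74 FPKM, in the same order of groups. ZK899.5 and ZK899.6, on chromosome X, had 2410 bases between them. ZK899.6 stood at 2.82, 1.91, 0.750 and 2.87 FPKM, and both ZK899 genes had their soma-depleted mean below the soma control mean without passing the test (adjusted p = 0.181 and 0.223 in the authors' deposited table). Neighbours of nearly equal length can be copies of each other. Their sequences were not analysed here, so reads shared between them cannot be told apart from reads of their own.

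**Figure D5:**
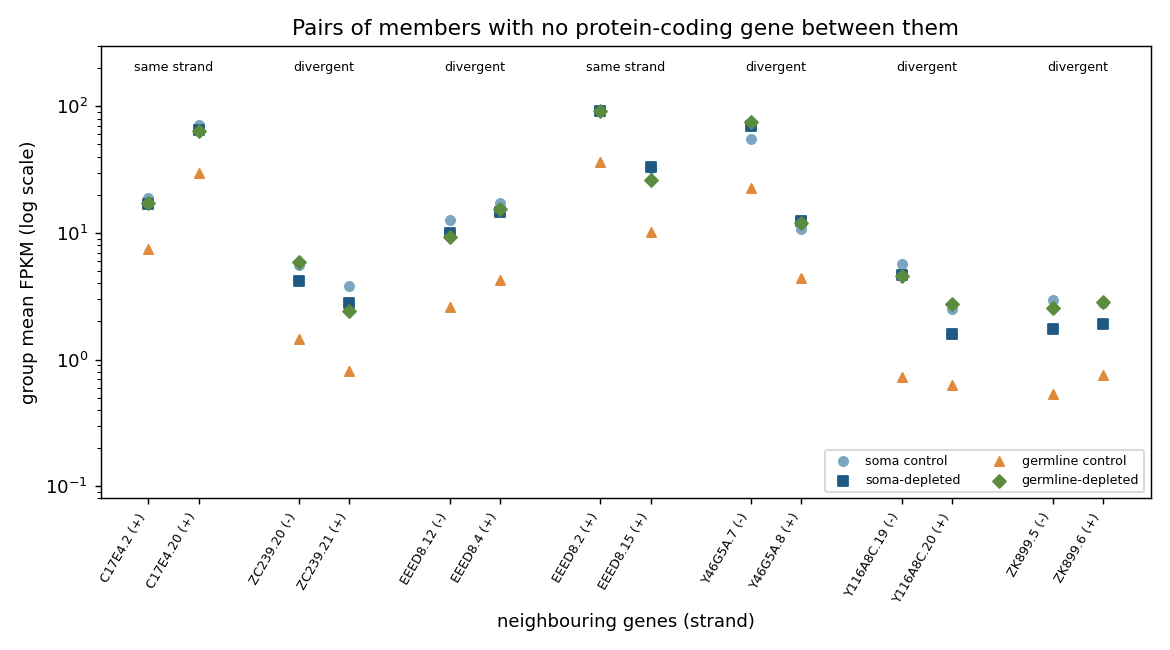
Authors' group mean FPKM (log axis) of the 7 pairs of neighbouring members with no protein-coding gene between them, in the 4 groups. Strand and orientation are given for each pair, and in every pair the germline control is the lowest point of both genes, as the choice of genes demands.

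On the same strand, C17E4.2 and C17E4.20 are 1327 bases apart on chromosome I, and EEED8.2 and EEED8.15 are 783 bases apart. C17E4.2 stood at 18.8 FPKM in the soma control strain, 17.1 after soma depletion, 7.51 in the germline control strain and 17.2 after germline depletion. Y17G9B.11 and Y17G9B.2, on chromosome IV, have 3 protein-coding genes between them, and none of the 3 is listed. Y17G9B.2 was the more abundant, at 37.4, 38.3, 12.2 and 32.6 FPKM. C08F1.11 and C08F1.6, with 1 such gene between them, and F36H5.17, 27278 bases away from C08F1.11, form a run of 3 on the left part of chromosome II. C08F1.6 stood at 12.4, 10.8, 3.26 and 7.05 FPKM and C08F1.11 at 7.32, 9.33, 2.61 and 6.41 FPKM.

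The merged exons of the 79 genes had a median of 824 bases and a median of 3 exons, against 1161 bases and 5 exons for annotated protein-coding genes. Listed protein-coding genes had the same median of 3 exons, with a median of 977 bases. The 98 other genes with the same pattern of means also had a median of 3 exons, with a median of 1036 bases. The 312 other eligible genes had nearly the same median length, 820.5 bases, with 4 exons. Single-exon genes made up 14 of the 79 (17.7%), 7.69% of the other eligible genes, 9.52% of listed protein-coding genes and 3.43% of annotated ones. They made up 11 of the 98 other genes with the same pattern (11.2%). Of the 79, R11.4, with 198 bases in 1 exon, was the shortest, and F23D12.10, with 1995 bases, the longest. Both the 79 genes and the other eligible genes exclude genes of the splicing table, while the 98 and the listed and annotated sets do not. The deposited splicing events overlapped the bounds of none of the 79 genes, a count that leaving out genes named there largely set in advance.

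Of the genes, 5 have a gene-class name in the current gene name table. C42D4.2 is now cest-10 and T22D1.11 is cest-6, members of a class named for the carboxylesterase domain, found in enzymes that cleave ester bonds. For C42D4.2 the means were 2.82 FPKM in the soma control strain, 2.83 after soma depletion, 1.05 in the germline control strain and 3.23 after germline depletion. For T22D1.11 they were 7.07, 6.38, 2.52 and 5.11 FPKM. Both genes have 10 exons, the most of the 79, and lie on chromosome IV. K08B4.2 is now cpg-20, of a class named for chondroitin proteoglycans, sugar-bearing proteins of the extracellular matrix and eggshell. It stood at 21.6, 23.0, 7.35 and 20.3 FPKM. Y57G11C.39 is now srlf-27 and stood at 5.32, 3.61, 1.56 and 4.18 FPKM, with a soma log2 fold change of -0.57 that did not pass (adjusted p = 0.194 in the authors' deposited table). The other is T05H10.3, described above. K08B4.2 and Y57G11C.39 are named here for their current symbols.

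The pattern of means was not confined to sequence-named genes. In all, 177 of the 882 listed genes had a germline control mean at most 0.5 times each other group, and 98 of them are not among the 79. Of these 98, 77 have a gene-class name and 16 are pseudogenes. They include 33 fbxb and 4 fbxc genes, which encode F-box proteins, the substrate adaptors of ubiquitin ligases, and 8 skr genes, which encode relatives of the ligase subunit Skp1. Their median germline log2 fold change was 1.48, beside 1.42 for the 79 genes, and their median germline control mean was 1.41 FPKM, beside 2.57.

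Over all 882 listed genes, 41.8% were called higher and 21.1% lower in the germline comparison, and 29.7% higher and 29.8% lower in the soma comparison. Within the F-box, Skp1, BTB, BATH and MATH list, 56 of 67 listed genes were higher and 3 lower in the germline comparison, and 5 were higher and 5 lower in the soma comparison, all from the authors' deposited table (adjusted p below 0.05). Listed heat-shock genes with an hsp name went the other way in the germline comparison, with 8 of 8 lower, and 7 of 8 were higher and none lower in the soma comparison. Their summed mean was 222 FPKM in the soma control strain, 549 after soma depletion, 1592 in the germline control strain and 511 after germline depletion. Of 18 listed sperm genes, 4 were higher and none lower in the germline comparison, and 18 of 18 were higher in the soma comparison. Their summed mean was 50.8 FPKM in the soma control strain, 148 after soma depletion, 57.7 in the germline control strain and 93.6 after germline depletion. For listed cuticle genes, 14 of 68 were higher and 29 lower in the germline comparison, and 32 were higher and 20 lower in the soma comparison. The part of heat-shock, sperm or cuticle transcripts in the levels of the 79 genes was not tested.

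Some genes named for transcription in the embryo had the same pattern of means. A list was made after the data were seen, from the gene classes pes (patterned expression sites), vet (very early transcripts), sdz (zygotic genes that depend on the maternal regulator SKN-1) and end (endoderm determination). Of its 15 listed genes, 11 were higher and 2 lower in the germline comparison and 3 were lower in the soma comparison, in the authors' deposited table. The other 2, pes-8 and sdz-35, were not called in the germline comparison and were lower in the soma comparison. Of the 15, 9 had the pattern of means of the 79, which 177 of all 882 listed genes had. The shares over all listed genes given for the lists above apply here too. Since the list was made with these values known, its counts are a description. The very early transcript gene vet-1 stood at 47.9 FPKM in the soma control strain, 41.6 after soma depletion, 13.2 in the germline control strain and 46.8 after germline depletion. For end-3, a GATA factor gene of the endoderm, the means were 1.93, 2.16, 0.833 and 2.85 FPKM. Those of pes-2.2 were 5.31, 4.47, 0.670 and 3.11 FPKM. In each of these 3 genes the germline control was the lowest group. They and sdz-3, sdz-24, sdz-27 and pes-10 were named after their values were seen. The largest exception was sdz-24, with 248, 94.9, 388 and 173 FPKM, which was lower after depletion in both comparisons. The other gene called lower in the germline comparison was sdz-3, with 2.14, 2.95, 3.23 and 1.56 FPKM. In both of these genes the germline control was the highest group.

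Summed over the 15 genes, the means were 663 FPKM in the soma control strain, 516 after soma depletion, 566 in the germline control strain and 560 after germline depletion, since sdz-24 and sdz-27 outweigh the rest. The median over the 15 genes was 9.36, 7.02, 3.23 and 6.36 FPKM in the same order, and none of their group means was 0. The lowest was 0.670 FPKM, for pes-2.2 in germline controls. The labels give the age of the worms as young adult and do not count embryos. The number of embryos in each group, and its part in the levels of the 79 genes, was not tested.

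Some levels may hold reads of another gene. The bounds of 17 of the 79 genes overlap another annotated gene, 13 of them on the opposite strand and 4 on the same strand. The overlap partners include arx-1 for Y71F9AL.6 and Y71F9AL.7, klf-2 for F53F8.3, apn-1 for T05H10.3 and spe-27, a gene of sperm activation, for C06E7.88. C06E7.88, named here for this overlap, stood at 46.6 FPKM in the soma control strain, 38.9 after soma depletion, 12.5 in the germline control strain and 30.1 after germline depletion. The sources used here do not say if reads were counted by strand, so reads of overlapping genes cannot be told apart. Without the 17 genes, 62 were left, of which 62 were higher in the germline comparison and none was called in the soma comparison. Both counts follow from those of the 79 genes, so they do not show whether shared reads matter.

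Among the members not yet described, 3 serve as further examples. B0281.5, on chromosome II, stood at 40.5 FPKM in the soma control strain, 33.5 after soma depletion, 8.39 in the germline control strain and 27.0 after germline depletion. F48E3.6, on chromosome X, stood at 34.3, 29.9, 9.07 and 27.1 FPKM. F17A2.13, also on chromosome X, stood at 15.1, 13.1, 3.59 and 12.1 FPKM. B0281.5, F48E3.6 and F17A2.13, named here after their values were seen, had all 3 other groups at least 2.98-fold above the germline control. Of all 79 genes, 13 had soma control means and 18 soma-depleted means as the lowest of the other 3 groups, and 48 had germline-depleted means as the lowest. Over all 882 listed genes these numbers were 322, 346 and 214. The order of the other 3 groups thus varied between the 79 genes.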

How the data were processed

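Poly(A)+ RNA of 11 samples in 4 groups was sequenced. The submitters' processing notes name DESeq2 1.26.0, STAR 2.7.2a, cutadapt 1.18, Trim Galore 0.6.0 and SAMtools 1.7, and the build WBcel235/ce11. The sources used here do not say how reads were counted. Per the file headers, the authors deposited group mean FPKM values (replicates pooled), the mean signal over all samples (a count whose scaling is not stated), log2 fold changes and adjusted p-values (Benjamini-Hochberg), with Ensembl 97 identifiers. The deposited splicing table, with q-values and differences between fractions, was used only for its gene names and positions. How many soma control samples entered the authors' mean is not stated.

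The header words the germline fold change against the soma control. For all 79 genes, both deposited log2 values differed by under 0.1 from the FPKM ratio of the depleted strain over its own TIR1 control on the log2 scale, and were read that way.

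No model could be fitted to group means, so no test was run. A gene counts as called at a deposited adjusted p under 0.05. Log2 ratios between groups used FPKM plus 0.1. Neighbours were members within 50 kb, between annotated ends. The members and lists were chosen with earlier results of these data known. Named genes were the 12 members with the smallest adjusted p among those called in the soma comparison (there were 0), the 10 largest germline log2 fold changes, the 6 highest germline-depleted means, 3 on each side of the limit, the 6 largest runs of neighbours, and the 6 largest and 6 smallest ratios of germline-depleted to soma control. Parts of the rule on protein similarity and products, and promoter motifs, were not analysed here. The member rule was tested on simulated data. Computations used Python 3.11.15, numpy 2.4.6, pandas 2.3.3 and matplotlib 3.10.9.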

Additional observations from a re-analysis of the deposited data

How the results depend on the processing

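The count of genes called in the soma comparison was 0 at adjusted p thresholds of 0.05 and 0.01, with a required log2 fold change of 1 either way, with a mean count of at least 100 and with a 3-fold limit in the choice of genes. Since no gene was called at 0.05, the stricter threshold, the fold change limit and the smaller sets could only give 0 again. They therefore do not test this count. At a threshold of 0.1, an alternative added after seeing the data, the count was 1, against 540 of the 882 listed genes. The count called in the germline comparison, which the choice of genes used, was 74 at a threshold of 0.01. It was 50 of 50 with a mean count of at least 100 and 13 of 13 with the 3-fold limit, because fewer genes were then left. The median log2 ratio of germline-depleted to soma control was -0.29, and it was -0.26 with a pseudocount of 1 FPKM and -0.33 with the 3-fold limit. The median log2 ratio of soma-depleted to soma control was -0.15 with a pseudocount of 0.1, and it was -0.14 with a pseudocount of 1, -0.12 with a mean count of at least 100 and -0.20 with the 3-fold limit. Another member lay within 20 kb for 22 genes and within 100 kb for 28, and with the 3-fold limit within 50 kb for 2 of 13. Counting near copies once was not run, since protein sequences were not used here. No paired analysis was possible because the deposited values are group means without samples. For the same reason no replicate could be left out, and the depth behind each mean is unknown.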
